A study of Mus musculus with 14 samples.

Results

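Amino acid transporters were followed in dorsal skin epithelium of C57BL/6JOlaHsd mouse embryos at E14.5, all of them wild type. Live epithelial cells that stained for the adhesion molecule MAdCAM-1 formed the placode-enriched group, and unstained cells formed the interfollicular epithelium (IFE) group, with 7 libraries each. Placodes are the thickenings of the epithelium from which hair follicles grow. Every library held the pooled epithelium of 3 to 4 embryos of 1 litter, called a pool here, and each placode-enriched library had an IFE partner under the same title code. Pairs are numbered 1 to 7, and pairs 5 to 7 have codes that start with 27-7. All protein-coding genes of the count table whose symbols start with Slc1a, Slc3a, Slc6a, Slc7a, Slc36a, Slc38a or Slc43a were taken, which gave 60 of 26252 listed genes. Of these, 35 passed the filter on low counts, as did 15382 genes in all. The prefixes also catch carriers of other substrates, among them monoamines, creatine, taurine and nucleobases, and Slc7a6os, whose product is not a carrier but the relative of a yeast import factor for RNA polymerase II, named after the neighbouring Slc7a6.

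Cells take up amino acids through families of membrane carriers that differ in what drives them. Heterodimeric carriers pair a light chain of the Slc7 family, which does the transport, with a heavy chain, Slc3a1 or Slc3a2, which brings it to the cell surface, and they exchange one amino acid for another. Slc38 and Slc6 carriers and the Slc1 family use the sodium gradient, Slc36 carriers such as Slc36a1 use protons, and Slc43 carriers work by facilitated diffusion. Growing epithelium needs leucine and glutamine for protein synthesis and for signalling to the kinase mTORC1, while cystine, taken up by Slc7a11, supplies glutathione and, in pigment cells, pheomelanin.

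The light chain gene Slc7a11 was the member with the strongest fall in the placode-enriched cells, and its promoter is shown because it holds the amino acid response element that ATF4, the transcription factor of amino acid shortage, is known to bind. The motif searched was TGATGNAA on both strands, where N is any base, in the RefSeq promoter windows (GRCm38.p6) of 300 bases, which hold 250 bases before and 50 after a start. The windows of Slc7a11 (chr3:50443564-50443863, minus strand) and Slc1a4 (chr11:20332664-20332963, minus strand) are given 5′ to 3′ on the gene's strand, with the matches in capitals.
Slc7a11: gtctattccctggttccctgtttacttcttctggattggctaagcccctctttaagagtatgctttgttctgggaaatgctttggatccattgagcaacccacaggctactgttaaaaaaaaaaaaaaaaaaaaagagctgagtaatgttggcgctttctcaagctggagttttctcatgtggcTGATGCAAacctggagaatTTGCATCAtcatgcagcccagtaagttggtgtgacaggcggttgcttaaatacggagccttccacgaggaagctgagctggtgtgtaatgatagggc
Slc1a4: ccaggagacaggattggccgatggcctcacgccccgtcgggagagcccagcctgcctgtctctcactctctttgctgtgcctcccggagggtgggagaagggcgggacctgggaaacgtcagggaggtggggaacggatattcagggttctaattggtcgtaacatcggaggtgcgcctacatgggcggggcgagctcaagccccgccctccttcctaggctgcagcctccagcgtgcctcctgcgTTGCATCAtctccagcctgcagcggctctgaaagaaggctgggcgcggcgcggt
Slc7a11 held 2 matches, on opposite strands, at positions 185 to 192 and 204 to 211 of the window, and Slc1a4 held 1 at positions 247 to 254. Of the 43 members with a window, 4 held the motif in any window (9.3%), namely Slc7a11, Slc1a4, Slc7a7 and Slc6a21, against 4.51% of the 27025 genes with a window. The windows shown are of the 2 that fell. Slc7a7 had a positive log2 fold change (0.71) that did not pass the threshold given below, and Slc6a21 did not pass the filter on low counts. A match describes these letters and does not show that the site is used.

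Slc7a5, the gene of the leucine carrier LAT1, and its heavy chain gene Slc3a2 rose slightly in the placode-enriched cells, while the cystine carrier gene Slc7a11 and the neutral carrier gene Slc7a8 fell to a small part of their IFE level. Of the 35 tested members, 11 rose and 5 fell at an adjusted p under 0.05, and 19 did not pass (edgeR quasi-likelihood F tests, blocked by pair). Over all tested genes 31.1% passed, 15.5% upward and 15.6% downward, against 45.7% of the members, 31.4% upward and 14.3% downward. Calls are more frequent among abundant genes. Of the 21 members with a mean of at least 10 CPM (read counts scaled to a common library size), a limit chosen after the values were seen, 13 passed, 9 upward and 4 downward, whereas 35.2% of all such genes passed, 16.7% upward and 18.5% downward. The median log2 fold change of the members was 0.09, and that of all tested genes was -0.02. In 7 members the CPM of the placode-enriched and IFE libraries did not overlap, as in 14.8% of all tested genes. Only 4 of the called members changed at least 2-fold, 2 upward (5.71% of all tested genes) and 2 downward (4.9%). In these bulk samples fewer cells of a type and less RNA per cell cannot be told apart.

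**Figure D1:**
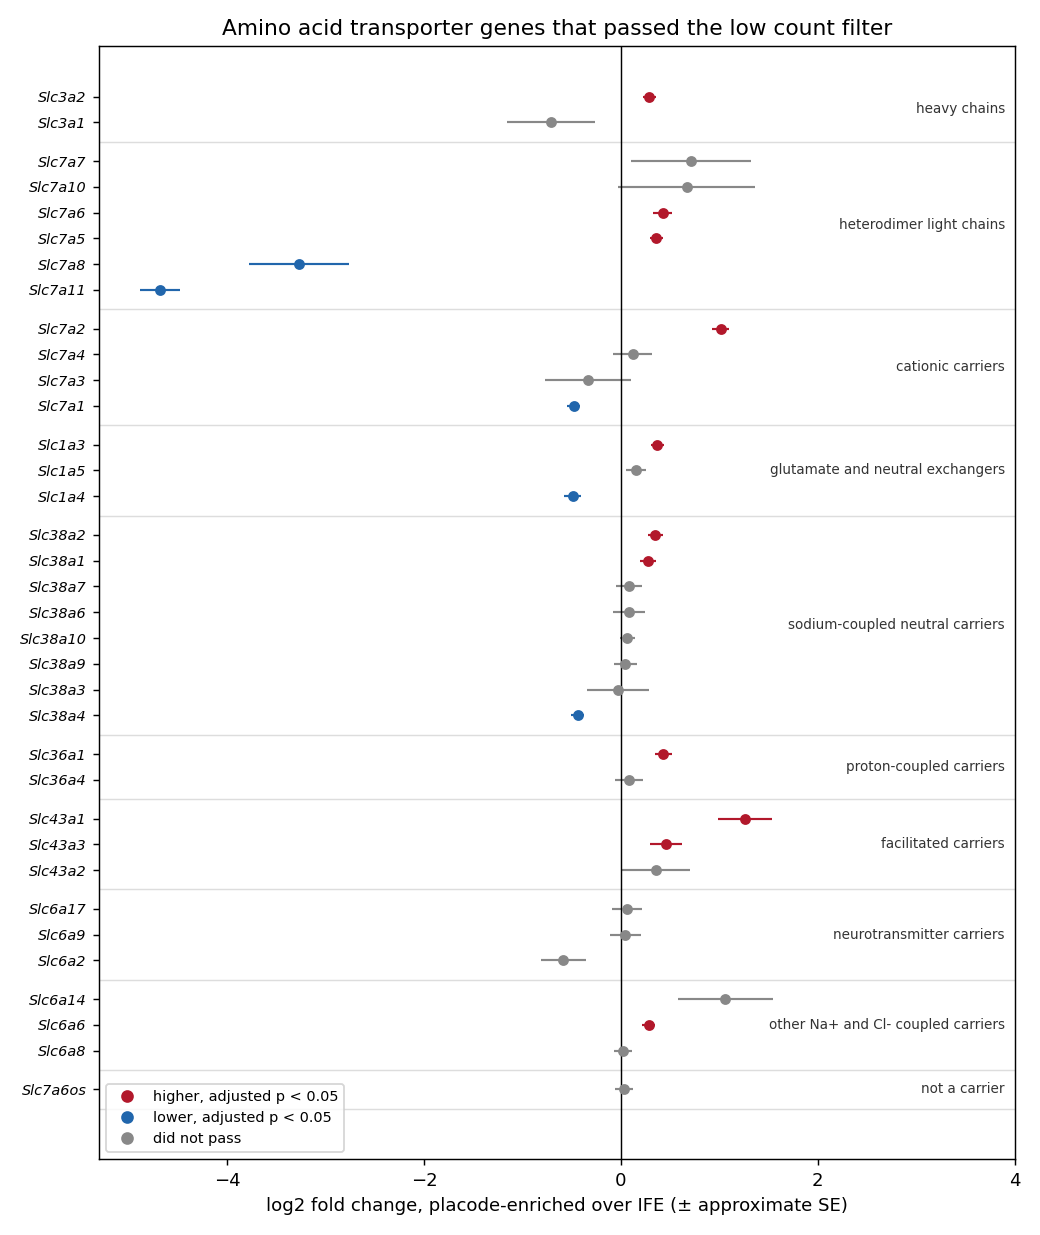
Log2 fold change of placode-enriched over IFE (x axis, ± approximate SE) for the 35 tested members, ordered by role, with red points for members that rose, blue for those that fell and grey for those that did not pass. Slc7a11 at -4.68 and Slc7a8 at -3.27 stand far to the left, and the other called members lie between -0.49 and 1.26.

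The count totals ranged between 23768071 and 49512872 reads per library. Madcam1, whose product was the sorting antigen, stood at 36.5 to 66.6 CPM in the placode-enriched pools and 0.171 to 1.23 CPM in the IFE pools. The 8 placode markers summed to 1060 to 1700 CPM in the placode-enriched pools and 194 to 270 CPM in the IFE pools. Other cell types moved with the fractions too. The 10 suprabasal markers summed to 201 to 463 CPM in the placode-enriched pools and 2880 to 4510 CPM in the IFE pools, the 8 periderm markers to 24.4 to 43.7 against 95.1 to 114 CPM, and the 6 basal markers to 5210 to 6820 against 5790 to 7340 CPM. Markers within the periderm, basal and dermal fibroblast lists differed in direction. Of 7 tested periderm markers 5 fell and 2 rose (Krt18, by 1.84 on the log2 scale, and Krt8), and of 6 tested basal markers 2 fell (Krt5 and Krt15), 3 rose (Trp63, Col17a1 and Krt14) and 1 did not pass. The 11 melanoblast markers summed to 8.31 to 14.6 CPM in the placode-enriched pools and 131 to 233 CPM in the IFE pools. Genes used as dermal fibroblast markers summed to 1100 to 1890 against 918 to 1260 CPM, nearly all of it Postn and Dcn. Of 7 tested, 3 rose, 1 fell (Col1a1, by -2.49 on the log2 scale) and 3 did not pass. Those that rose included Dcn (498 and 258 CPM on average) and Col1a2 (28.0 and 11.8 CPM), each without overlap. Pdgfra averaged 0.446 and 0.413 CPM and Twist2 0.00574 and 0.171 CPM. Endothelial markers (1.33 to 3.84 against 0.214 to 1.43 CPM), immune markers (3.94 to 11 against 2.87 to 6.18 CPM) and Merkel cell markers (0.442 to 3.07 against 0 to 0.33 CPM) were low. The 1 tested endothelial marker and 1 of 2 tested immune markers rose. Markers of Schwann cells and neurons summed to 3.12 to 6.05 against 6.91 to 15.3 CPM, lower in 7 of 7 pairs. Of 4 tested, 2 fell, both at least 2-fold and without overlap, and 2 did not pass. Erythroid markers were below 1 CPM in every library, and Hba-a2, Hbb-bt and Hbb-y had no count in placode-enriched libraries. Mitochondrial transcripts, used as a sign of RNA quality, summed to 28100 to 42400 against 34600 to 47800 CPM. The part of these differences in the results on transporters was not tested.

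Among the heterodimeric carriers, the heavy chain and the main light chain rose together. Slc3a2 encodes 4F2hc (CD98), the heavy chain shared by most light chains (ENSMUSG00000010095; GRCm38 chromosome 19, 8706882 to 8723369, minus strand). Its lowest, median and highest values were 211, 229 and 256 CPM in the placode-enriched pools and 166, 193 and 210 CPM in the IFE pools, so the ranges came close but did not overlap. Slc3a2 rose by 0.29 ± 0.07 on the log2 scale (± the approximate SE here and below; edgeR adjusted p = 0.0052), in 7 of 7 pairs, although 1 pair differed by only 0.01. Its call was lost in the 3 pairs with 27-7 codes alone and in the 4 other pairs alone. Slc7a5 encodes LAT1, the leucine carrier that pairs with it (ENSMUSG00000040010; chromosome 8, 121881150 to 121907694, minus strand). Slc7a5 had 222, 301 and 341 CPM in the placode-enriched pools and 192, 229 and 245 CPM in the IFE pools. The ranges overlapped, but within every pair the placode-enriched library was higher, by 0.36 ± 0.06 on the log2 scale (edgeR adjusted p = 0.000749). Slc7a6, which encodes y+LAT2, an exchanger of cationic for neutral amino acids, had 24.6, 28.0 and 32.4 CPM in the placode-enriched pools and 18.2, 20.5 and 26.6 CPM in the IFE pools. It rose by 0.42 ± 0.10 on the log2 scale in 7 of 7 pairs (edgeR adjusted p = 0.00394).

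Slc7a11, which encodes xCT, the carrier that takes up cystine in exchange for glutamate (ENSMUSG00000027737; chromosome 3, 49892526 to 50443614, minus strand), was the lowest member relative to IFE. It had 1.3, 3.46 and 7.07 CPM in the placode-enriched pools and 69.4, 89.9 and 106 CPM in the IFE pools. The lowest IFE library lay far above the highest placode-enriched library. The log2 fold change was -4.68 ± 0.20 (edgeR adjusted p = 1.84e-09), which is 25.6-fold lower, in 7 of 7 pairs. It was -5.32 in the 3 pairs with a 27-7 title code and -4.27 in the 4 other pairs, each analysed alone. Slc7a11 is also a gene of pigment cells: in mice its loss, known as subtle gray, reduces yellow pigment. All 10 tested melanoblast markers fell with it, with a median log2 fold change of -4.64.

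Within the placode-enriched libraries, Slc7a11 and the melanoblast markers did not order the pools alike. The 3 libraries with 27-7 codes had the lowest Slc7a11, at 1.3, 2.09 and 2.66 CPM, and their melanoblast sums of 13.5, 14.2 and 14.6 CPM were among the highest. The 4 other libraries had 3.46, 4.57, 4.49 and 7.07 CPM of Slc7a11 beside sums of 13.5, 8.31, 9.25 and 10.2 CPM. Sox10 (4.40 CPM on average) and Kit (3.32 CPM) were the most abundant of the 11 markers in these pools. The pigment genes Dct and Tyr averaged only 0.315 and 0.357 CPM there, and what the order of such low sums reflects was not tested. In the IFE libraries Slc7a11 and the sum lay highest in the same pool, at 106 and 233 CPM, and lowest in the same pool, at 69.4 and 131 CPM. Between these extremes the orders differed. Pairs 1, 2, 3, 5 and 7 had 92.0, 92.5, 80.6, 80.8 and 89.9 CPM of Slc7a11. Their sums were 157, 228, 174, 164 and 166 CPM. Mfsd12, which brings cysteine into melanosomes and lysosomes, had 8.11, 10.1 and 14.7 CPM in the placode-enriched pools and 11.3, 13.3 and 14.7 CPM in the IFE pools, which overlap, and did not pass (log2 -0.24 ± 0.14; edgeR adjusted p = 0.253). The 10 suprabasal markers also summed to less in the placode-enriched pools, as given above. How far melanoblasts or suprabasal cells account for the level of Slc7a11 was not tested.

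**Figure D2:**
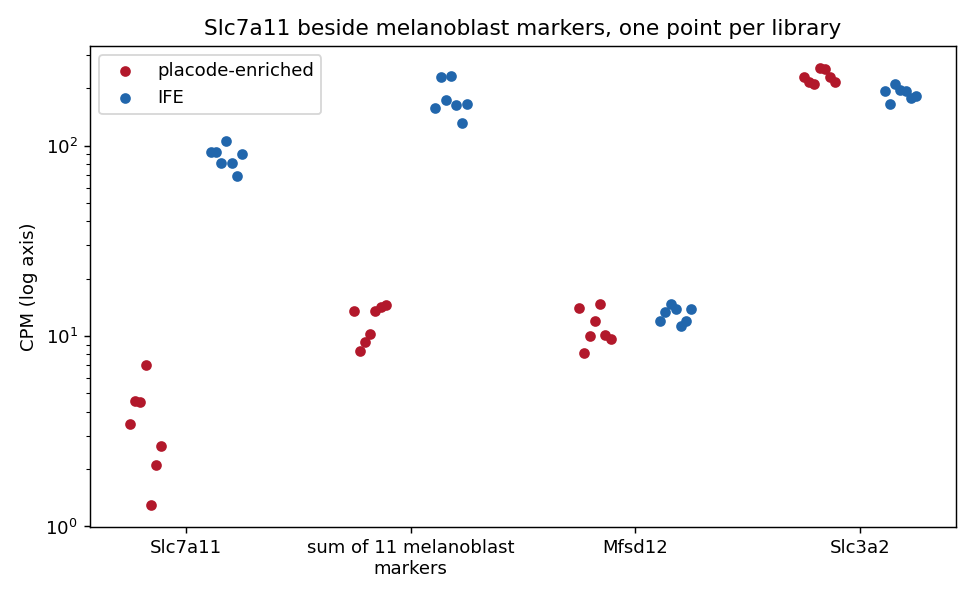
CPM per library (y axis, log scale) of Slc7a11, the sum of 11 melanoblast markers, Mfsd12 and Slc3a2, with red points for the 7 placode-enriched and blue points for the 7 IFE libraries. Slc7a11 and the marker sum separate the groups fully, Mfsd12 at 8.11 to 14.7 against 11.3 to 14.7 CPM does not, and Slc3a2 is slightly higher in the placode-enriched libraries.

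Slc7a8, which encodes LAT2, another light chain of Slc3a2 with a broad range of neutral substrates (ENSMUSG00000022180; chromosome 14, 54722209 to 54781946, minus strand), was the other strongly reduced member. It was rare, with 0, 0.325 and 0.976 CPM in the placode-enriched pools and 2.25, 3.7 and 5.51 CPM in the IFE pools, or 106 and 865 reads summed over 7 libraries each. The groups did not overlap, and the log2 fold change was -3.27 ± 0.51 (edgeR adjusted p = 0.000245), with differences per pair between -5.61 and -1.16. The remaining light chains were near the floor. Slc7a7 (y+LAT1) had 0.0402, 0.65 and 1.59 CPM in the placode-enriched pools and 0.152, 0.391 and 0.667 CPM in the IFE pools (log2 0.71 ± 0.61; edgeR adjusted p = 0.432). Slc7a10 (Asc-1, a carrier of small neutral amino acids) had 0, 0.354 and 0.976 CPM in the placode-enriched pools and 0, 0.271 and 0.469 CPM in the IFE pools (log2 0.67 ± 0.70; edgeR adjusted p = 0.525). Exons of Slc7a7 overlap Oxa1l and those of Slc7a10 overlap Lrp3 on the opposite strand, so their few reads may come from either gene. Slc3a1, the heavy chain known from kidney, stood at 0.427 ± 0.366 CPM in the placode-enriched pools and 0.604 ± 0.26 CPM in the IFE pools (mean ± SD, n = 7 each, as for all CPM given with ±). It did not pass (log2 -0.71 ± 0.45) and overlaps exons of Prepl on the opposite strand, and its usual partner Slc7a9 was not tested, at no more than 0.228 CPM in any library.

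Per kilobase of merged exons, Slc7a5 made up most of the light chain transcripts in both fractions. Such shares depend on the length of all annotated exons, 13.9 kb for Slc7a11 and 3.71 kb for Slc7a5. In the IFE pools Slc7a11 averaged 87.3 and Slc7a5 220 CPM before division by length. The share of Slc7a5 in the summed level of the 9 light chains was 91.4% ± 1.53 in the placode-enriched pools and 83.1% ± 2.25 in the IFE pools (SD, n = 7 each), higher in 7 of 7 pairs. Slc7a11 held 0.326% ± 0.174 in the placode-enriched pools and 8.86% ± 1.37 in the IFE pools, and Slc7a6 held 7.63% ± 1.52 and 6.63% ± 1.28. The summed level of light chains was 67.4 to 99.6 in the placode-enriched pools and 64.3 to 78.7 CPM per kilobase in the IFE pools, and that of the heavy chains, almost all Slc3a2, was 60.4 to 72.7 and 47.1 to 59.8 CPM per kilobase. Both sums were higher in the placode-enriched library of every pair.

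The carriers of arginine and lysine changed in opposite directions. Slc7a2, which encodes CAT2 (ENSMUSG00000031596; chromosome 8, 40862396 to 40922308, plus strand), had 37.7, 42.9 and 46.4 CPM in the placode-enriched pools and 18.4, 20.4 and 25.3 CPM in the IFE pools, with no overlap. It rose by 1.01 ± 0.09 on the log2 scale, 2.02-fold, in 7 of 7 pairs (edgeR adjusted p = 1.07e-06), the smallest p among the members that rose. Part of its exons overlap the opposite-strand gene Gm26584. Slc7a1, which encodes the widespread CAT1 (ENSMUSG00000041313; chromosome 5, 148327410 to 148399904, minus strand), had 96.5, 124 and 140 CPM in the placode-enriched pools and 153, 166 and 181 CPM in the IFE pools. Again the groups did not overlap, with Slc7a1 lower in 7 of 7 pairs by -0.48 ± 0.07 on the log2 scale (edgeR adjusted p = 0.000121). Per kilobase, Slc7a1 stayed above Slc7a2, at 10.4 ± 1.27 against 4.64 ± 0.348 CPM per kilobase in the placode-enriched pools and 12.4 against 3.47 CPM per kilobase over all 14 libraries. Slc7a3 (CAT3) and Slc7a4, a relative without a settled substrate, had log2 values of -0.33 ± 0.44 and 0.12 ± 0.20 and did not pass.

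**Figure D3:**
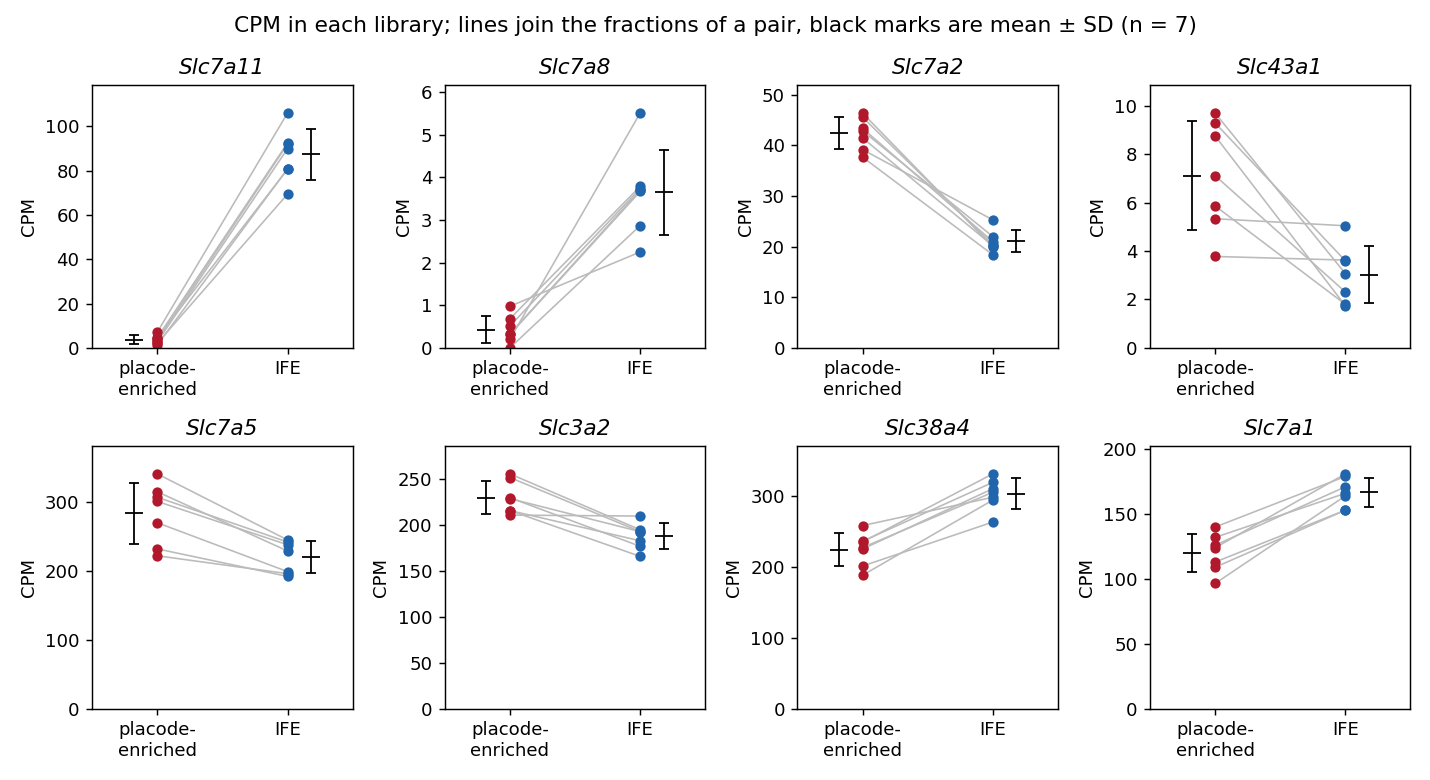
CPM (y axes, from 0) of 8 members in each placode-enriched (red, left) and IFE (blue, right) library, with grey lines joining the fractions of a pair and black marks for mean ± SD (n = 7). Slc7a11, Slc7a8, Slc38a4 and Slc7a1 are lower and Slc7a2, Slc43a1, Slc7a5 and Slc3a2 higher in the placode-enriched library of each of the 7 pairs.

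In the Slc1 family, the glutamate carrier rose and a neutral exchanger fell. Slc1a3 encodes GLAST, a sodium-coupled glutamate and aspartate carrier best known from glia. Its CPM were 84.6, 95.4 and 110 in the placode-enriched pools and 65.8, 72.5 and 85.3 in the IFE pools, with a slight overlap, and its log2 fold change was 0.37 ± 0.07 in 7 of 7 pairs (edgeR adjusted p = 0.00107). Slc1a4 encodes ASCT1, an exchanger of alanine, serine and cysteine. Slc1a4 had 22.2, 29.1 and 32.8 CPM in the placode-enriched pools and 34.3, 39.2 and 45.4 CPM in the IFE pools, without overlap, and fell in 7 of 7 pairs (log2 -0.49 ± 0.08; edgeR adjusted p = 0.000534). Slc1a5, the gene of the glutamine exchanger ASCT2, stood at 23.9 ± 4.1 CPM in the placode-enriched pools and 21.3 ± 1.51 CPM in the IFE pools and did not pass (log2 0.15 ± 0.10; edgeR adjusted p = 0.302). The glutamate carriers Slc1a1, Slc1a2 and Slc1a6 were not tested.

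Of the 8 tested sodium-coupled Slc38 carriers, 2 rose, 1 fell and 5 did not pass (median log2 0.07). For comparison, 31.1% of all tested genes were called, 15.5% upward and 15.6% downward. Slc38a4, an imprinted gene expressed from the paternal allele in mouse that encodes SNAT4, had 188, 227 and 258 CPM in the placode-enriched pools and 263, 305 and 331 CPM in the IFE pools. All placode-enriched libraries lay below all IFE libraries, and the log2 fold change was -0.44 ± 0.07 (edgeR adjusted p = 0.000221). Slc38a2, which encodes the glutamine and alanine carrier SNAT2, had 190, 254 and 317 CPM in the placode-enriched pools and 182, 200 and 211 CPM in the IFE pools. It rose by 0.35 ± 0.08 in 7 of 7 pairs (edgeR adjusted p = 0.0034), with overlapping ranges. Slc38a1, which encodes the related SNAT1, stood at 80.9 ± 11.5 CPM in the placode-enriched pools and 66.5 ± 6.06 CPM in the IFE pools and rose in 6 of 7 pairs (log2 0.27 ± 0.08; edgeR adjusted p = 0.0222). That call was lost without pair 6 (0.27, edgeR adjusted p = 0.0605) or pair 7 (0.26, edgeR adjusted p = 0.0562). Slc38a10 had 91.6, 103 and 142 CPM in the placode-enriched pools and 93.6, 99.6 and 116 CPM in the IFE pools and did not pass (0.06 ± 0.08; edgeR adjusted p = 0.588). Slc38a9, the lysosomal arginine sensor of mTORC1, and Slc38a7, a lysosomal glutamine carrier, had log2 values of 0.04 ± 0.11 and 0.08 ± 0.13, and Slc38a6 and Slc38a3 had 0.08 ± 0.16 and -0.03 ± 0.31.

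Of the 2 tested Slc36 carriers 1 rose. Of the 3 tested facilitated carriers 2 rose, 1 of them at the threshold, where 15.5% of all tested genes rose. Slc36a1, which encodes PAT1, a carrier that moves small neutral amino acids out of lysosomes, had 41.1, 50.1 and 63.4 CPM in the placode-enriched pools and 24.6, 39.2 and 44.9 CPM in the IFE pools. The ranges overlapped, with a log2 fold change of 0.43 ± 0.08 in 7 of 7 pairs (edgeR adjusted p = 0.00155). Slc36a4 stood at 22.8 ± 3.75 CPM in the placode-enriched pools and 21.6 ± 4.01 CPM in the IFE pools (0.08 ± 0.14, not passing). Slc43a1 encodes LAT3, which moves leucine and other large neutral amino acids without a partner chain. Its CPM were low, at 3.78, 7.12 and 9.71 in the placode-enriched pools and 1.74, 3.07 and 5.05 in the IFE pools, and the log2 fold change of 1.26 ± 0.27 was the highest of any called member (edgeR adjusted p = 0.00326). It was higher in 7 of 7 pairs, by between 0.06 and 2.29 on the log2 scale. Slc43a3, now known as a nucleobase carrier, had 6.07, 6.9 and 10.4 CPM in the placode-enriched pools and 4.78, 5.34 and 6.67 CPM in the IFE pools. Its call was at the threshold (0.46 ± 0.16 in 6 of 7 pairs; edgeR adjusted p = 0.0495) and was lost without any of pairs 1, 2, 3, 4, 6 and 7, at edgeR adjusted p between 0.0589 and 0.129. Slc43a2 (LAT4) stood at 2.06 ± 1.05 CPM in the placode-enriched pools and 1.44 ± 0.169 CPM in the IFE pools and did not pass (0.36 ± 0.35).

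The Slc6 family was mostly silent. Of its 19 members in the table, 6 were tested and 1 was called, where 31.1% of all tested genes were called. Slc6a6, which encodes the taurine carrier, stood at 64.0 ± 9.5 CPM in the placode-enriched pools and 52.6 ± 8.3 CPM in the IFE pools and rose by 0.28 ± 0.07 in 7 of 7 pairs (edgeR adjusted p = 0.00571). Without the pair as a block the same value missed the threshold (0.28, edgeR adjusted p = 0.0648). Slc6a8, the creatine carrier gene, stood at 58.2 ± 7.99 CPM in the placode-enriched pools and 57.4 ± 9.59 CPM in the IFE pools (0.03 ± 0.09, not passing). The glycine carrier gene Slc6a9 (0.04 ± 0.16), the vesicular neutral amino acid carrier gene Slc6a17 (0.06 ± 0.15) and the broad carrier gene Slc6a14 (1.06 ± 0.48; 1.08 ± 0.564 against 0.53 ± 0.231 CPM) did not pass. The noradrenaline carrier gene Slc6a2 had 1.85, 3.9 and 5.58 CPM in the placode-enriched pools and 3.64, 6.07 and 6.83 CPM in the IFE pools, and its value of -0.59 ± 0.23 on the log2 scale missed the threshold (edgeR adjusted p = 0.0702). Without pair 7 it passed, at -0.77 (edgeR adjusted p = 0.0158). Slc7a6os, the member that is no carrier, stood at 40.9 ± 3.47 CPM in the placode-enriched pools and 40.1 ± 4.15 CPM in the IFE pools (0.03 ± 0.09, not passing).

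The 25 members that were not tested had between 2 and 127 reads over all 14 libraries, and in 23 of them no library reached 1 CPM. They included the GABA carriers Slc6a11 and Slc6a13, the dopamine and serotonin carriers Slc6a3 and Slc6a4, the kidney and gut carriers Slc6a18, Slc6a19 and Slc6a20a, and the glutamine carrier Slc38a5. They did not pass the filter on low counts. Without that filter 2 of them were called at few reads, Slc6a4 (72 reads over the placode-enriched and 8 over the IFE pools) and Slc6a15, a carrier of neutral amino acids (11 and 89 reads). Among the tested members, exons of Slc6a6, Slc38a10, Slc6a9, Slc7a4, Slc38a9 and Slc43a2 overlap a gene on the opposite strand, so their reads may be shared with it.

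Ordered by level per kilobase of merged exons over all 14 libraries, Slc7a5 (68.0), Slc38a4 (61.9) and Slc3a2 (59.3 CPM per kilobase) led the members, followed by Slc38a2 (25.6), Slc38a10 (16.3) and Slc7a1 (12.4). The order of the first 3 differed between the fractions. In placode-enriched libraries Slc7a5 stood at 76.6 ± 12, Slc3a2 at 65.2 ± 5.03 and Slc38a4 at 52.6 ± 5.50 CPM per kilobase, and Slc7a5 and Slc3a2 were within their spread of each other. In IFE libraries Slc38a4 stood at 71.1 ± 5.10, Slc7a5 at 59.3 ± 6.36 and Slc3a2 at 53.3 ± 4.02 CPM per kilobase, the last pair again within their spread. The members together summed to 314 to 370 CPM per kilobase in the placode-enriched pools and 317 to 345 CPM per kilobase in the IFE pools, higher in the placode-enriched library of 6 of 7 pairs. The Slc38 carriers alone summed to 99.3 to 125 in the placode-enriched pools and 109 to 125 CPM per kilobase in the IFE pools, lower in 6 of 7 pairs.

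**Figure D4:**
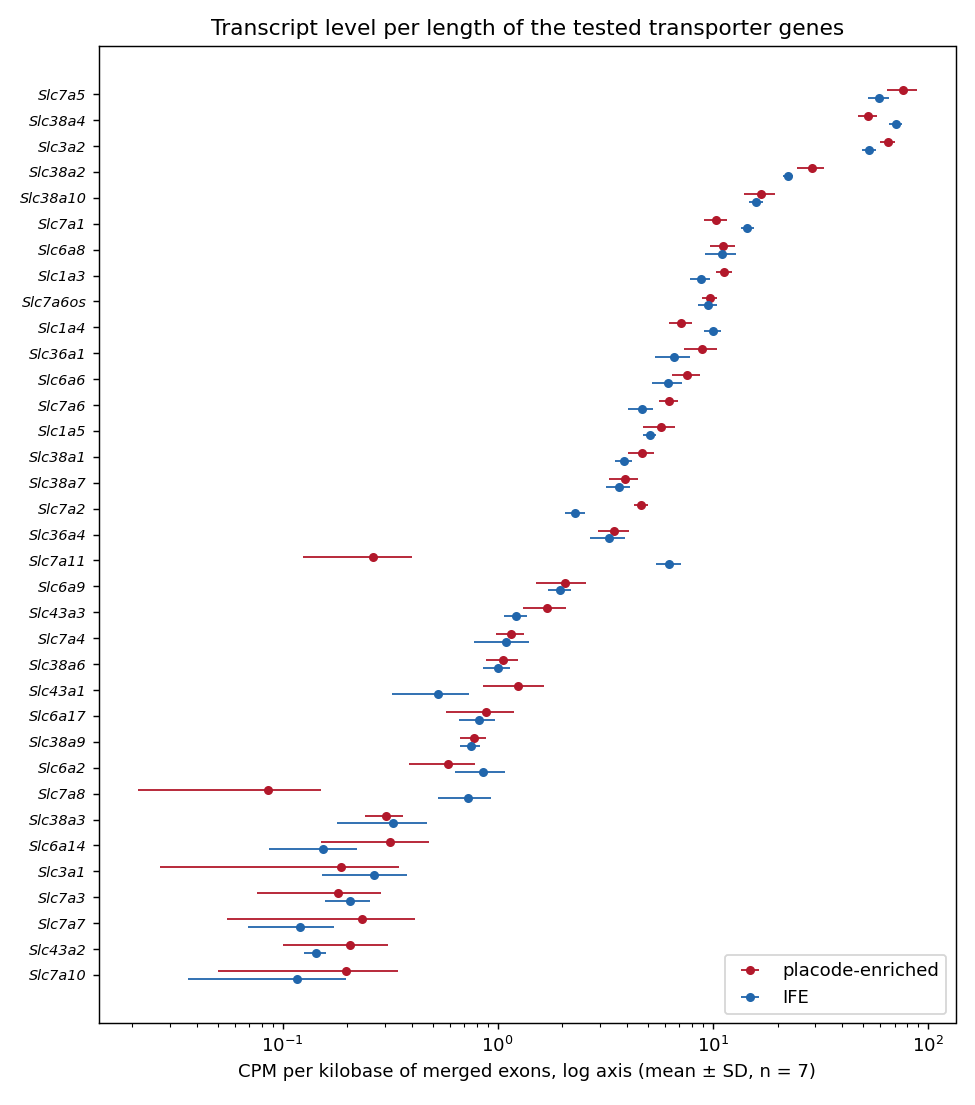
CPM per kilobase of merged exons (x axis, log scale; mean ± SD, n = 7) of the 35 tested members in placode-enriched (red) and IFE (blue) libraries, ordered by the mean over all libraries. Slc7a5, Slc38a4 and Slc3a2 head the list, and Slc7a11 stands at 0.263 in the placode-enriched pools and 6.27 CPM per kilobase in the IFE pools.

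Among the other genes that handle amino acids, calls in the lists of tRNA synthetases and of synthesis were mostly downward. Over all tested genes 15.5% rose and 15.6% fell, against 0% and 55.0% of the synthetases and 4.17% and 37.5% of the synthesis genes. Of 20 tested cytosolic aminoacyl-tRNA synthetases, which load amino acids onto tRNAs, 11 fell, none rose and 9 did not pass, with a median log2 fold change of -0.23. Iars stood at 115 ± 8.18 CPM in the placode-enriched pools and 162 ± 10.1 CPM in the IFE pools (-0.49 ± 0.07) and Eprs at 201 ± 28.8 and 261 ± 32.3 CPM (-0.38 ± 0.10). With library size only, or without pair 4, 7 synthetases fell, and 3 fell in the pairs with 27-7 codes alone and 2 in the 4 other pairs alone. Of 24 tested genes of amino acid synthesis, 9 fell, 1 rose and 14 did not pass (median -0.20). Without pair 4 or pair 7, 5 of them fell, and 0 to 2 rose with any 1 pair left out. Cbs, the first enzyme of transsulfuration, which makes cysteine from methionine, stood at 17.7 ± 2.64 CPM in the placode-enriched pools and 37.3 ± 5.21 CPM in the IFE pools (-1.08 ± 0.09; edgeR adjusted p = 5.1e-07). Psat1, an enzyme of serine synthesis, stood at 78.4 ± 15.7 and 149 ± 16.4 CPM (-0.94 ± 0.10; edgeR adjusted p = 5.89e-06).

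Genes of the amino acid response went both ways. Of 15 tested, 6 fell (40.0%, against 15.6% of all tested genes), 2 rose (13.3%, against 15.5%) and 7 did not pass (median -0.12). Without pair 7, 3 fell, and 2 fell in the pairs with 27-7 codes alone. Atf4 itself stood at 148 ± 25.8 CPM in the placode-enriched pools and 191 ± 27.9 CPM in the IFE pools, lower in 6 of 7 pairs (-0.38 ± 0.11; edgeR adjusted p = 0.0216). Nupr1, a stress-induced chromatin protein, fell to 0.474 ± 0.215 CPM in the placode-enriched pools, against 5.53 ± 2.21 CPM in the IFE pools (-3.50 ± 0.37), and Stc2, a secreted stanniocalcin, to 3.32 ± 0.601 against 11.5 ± 1.61 CPM (-1.80 ± 0.14). Vldlr, the very low density lipoprotein receptor, rose to 25.4 ± 8.97 CPM in the placode-enriched pools, against 4.67 ± 1.6 CPM in the IFE pools (2.45 ± 0.16), and the stress transcription factor gene Atf3 rose by 0.75 ± 0.18. Of 12 tested genes of arginine and polyamine metabolism, 2 rose (16.7%), 2 fell (16.7%) and 8 did not pass (median -0.27). These shares were near those of all tested genes, and 5 fell without pair 3. Odc1, the enzyme that makes putrescine, rose (128 ± 21.7 against 94.6 ± 7.84 CPM; 0.42 ± 0.10), as did Oaz2, an inhibitor of that enzyme (50.2 ± 8.39 against 30.7 ± 3.11 CPM; 0.70 ± 0.10), while spermidine synthase Srm (-0.54 ± 0.08) and the polyamine acetylase gene Sat1 (-0.52 ± 0.14) fell. Of 20 tested amino acid carriers outside the chosen families, 1 rose, 2 fell and 17 did not pass (median -0.11), and 4 fell without pair 3 or pair 5. The peptide carrier gene Slc15a2 rose (0.48 ± 0.14), and the aromatic amino acid carrier gene Slc16a10 (-0.57 ± 0.14) and the mitochondrial ornithine carrier gene Slc25a15 (-0.49 ± 0.11) fell.

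**Figure D5:**
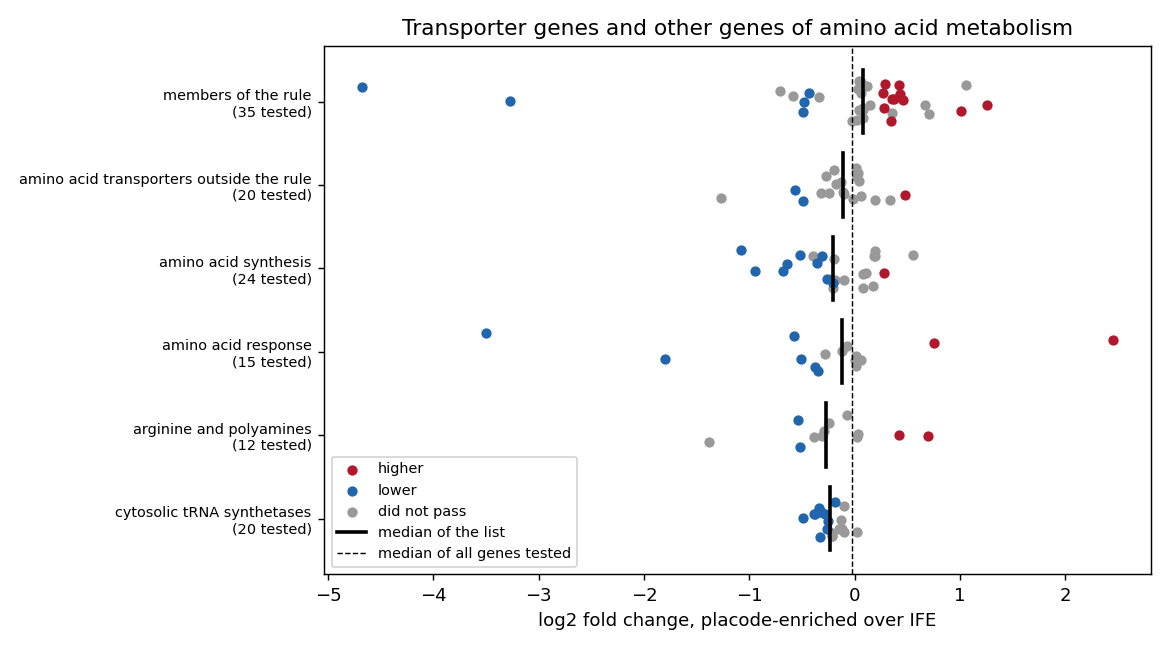
Log2 fold change of placode-enriched over IFE (x axis) of each tested gene in the transporter families and 5 other lists, with red points for genes that rose, blue for those that fell, grey for those that did not pass, a bar at each list's median and a dashed line at the median of all genes tested. The transporter median lies at 0.09 and the 5 other medians between -0.27 and -0.11.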

How the data were processed

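The authors deposited whole-number read counts for each Ensembl identifier, without normalization. The submitters' processing notes list HTSeq and STAR (with version 1.5), Trimmomatic, bcl2fastq version 2.17.1.14 and the quality reports FastQC and MultiQC, with GRCm38 and mm10 as builds. Not given in the sources used here were the handling of duplicates, the strand setting and the release of the annotation, so reads of genes that overlap on opposite strands may be shared (23 of the 60 members overlap such a gene, 13 of them in exons). Amplified reads are not independent molecules. Symbols, coordinates and merged exon lengths came from GENCODE M21 (GRCm38), which matched 25949 of 26252 identifiers, and promoters from RefSeq (GRCm38.p6). GENCODE M21 holds 64 protein-coding symbols of the rule. The other 4 were not analysed here.

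Counts were filtered with filterByExpr (15382 genes kept), scaled by TMM and tested with robust quasi-likelihood F tests in edgeR 4.0.16 (R 4.3.3, limma 3.58.1) with the pair as a block, and p-values were adjusted by Benjamini-Hochberg over all genes tested. Fold changes use a prior count of 0.125, and standard errors are approximate. Differences per pair use a prior count of 2. CPM use TMM-scaled library sizes. Levels between genes are CPM per kilobase of merged exons, and their order depends on the annotated exon lengths. The design text names pairs, and the title codes join them. Deviations from the group means correlated by 0.0548 on average within pairs (-0.132 to 0.195). Each library counts as 1 sample, and the p-values reflect how these pools vary.

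The members, gene lists, tests and alternatives were chosen with earlier results of these data known. CPM per library were given for the 6 highest and 6 lowest called members with at least 1 CPM, the 6 most abundant per kilobase, Slc3a2 and the tested light chains, and for other members where a result turned on them. From each other list, up to 2 called genes per direction with the largest change were named, and Atf4 as the factor behind the motif. Marker sums were not tested, while single marker genes took their calls from the fit over all genes. A few genes of these lists are counted but not reported by name here. Alternatives were no pair block, 3 other scalings, no filter, a stricter filter (1 CPM in 7 libraries), DESeq2 1.42.0, limma-voom, each pair left out, the pairs with and without 27-7 codes alone, and a threshold of 0.01. The methods were tested on simulated data.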

Additional observations from a re-analysis of the deposited data

How the results depend on the processing

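All 16 called members kept their direction in the 17 alternative fits. All 16 calls held with DESeq2 size factors, upper-quartile scaling, the stricter filter, DESeq2 and limma-voom. Without the replicate block 15 calls held (10 upward and 5 downward, 4689 genes in all), and Slc6a6 was lost. Slc43a3 was lost with library size only (0.49, edgeR adjusted p = 0.0517) and without a filter (0.47, edgeR adjusted p = 0.0595). Leaving out each pair gave 3953 to 5229 called genes, 9 to 11 members that rose and 5 to 6 that fell. The 3 pairs with 27-7 codes alone gave 2331 called genes, with 4 members rising and 5 falling, and the 4 other pairs 3087 genes, with 6 rising and 5 falling. Of the 16 calls, 9 held in the first subset and 11 in the second. Slc3a2, Slc38a1 and Slc6a6 were called in neither subset. Slc1a3, Slc36a1, Slc38a2 and Slc43a3 were not called in the first subset, and Slc43a1 and Slc7a6 were not called in the second. At a threshold of 0.01, 9 rose and 5 fell. Members called only in an alternative were Slc6a2 with DESeq2 (-0.58) and without pair 7 (-0.77), and Slc6a15 (-3.79) and Slc6a4 (3.96) without a filter.

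Sign changes occurred only among members that did not pass. With 27-7 codes alone Slc36a4 stood at -0.16, Slc38a6 at -0.20, Slc38a9 at -0.018 and Slc7a3 at 0.031. In the 4 other pairs Slc38a10 stood at -0.0012, Slc38a7 at -0.12, Slc6a17 at -0.10, Slc6a8 at -0.089, Slc6a9 at -0.10, Slc7a4 at -0.013 and Slc7a6os at -0.072. Slc38a3 stood at 0.0031 with library size only. With a pair left out, log2 values ranged between -0.066 and 0.16 for Slc36a4, -0.23 and 0.14 for Slc38a3, -0.046 and 0.16 for Slc38a7, -0.0016 and 0.092 for Slc38a9, -0.0082 and 0.15 for Slc6a17, -0.037 and 0.11 for Slc6a8, -0.071 and 0.14 for Slc6a9, -0.026 and 0.22 for Slc7a4, and -0.0043 and 0.10 for Slc7a6os. The cause of these changes was not tested, and subsets hold fewer samples. Members below 1 CPM are limited by depth.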
